A study of Mus musculus with 8 samples.

Results

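Replication-dependent histone genes were examined in 8 RNA-seq libraries of mouse pro-B cells, the bone marrow stage at which the immunoglobulin heavy chain locus is rearranged. Of these, 4 carry the genotype label CD25_KO and 4 the label wild type (KO 1 to KO 4 and WT 1 to WT 4 below), and the labels give no age, strain, treatment or deleted exons. CD25, the product of Il2ra, is a chain of the interleukin-2 receptor. Because the labels do not tie libraries to animals, the p-values cover library-to-library spread alone, part of which may be technical. The members were chosen by their names and were selected on their measured counts: protein-coding genes with a symbol starting Hist1h, Hist2h, Hist3h or Hist4h and at least 10 counts in at least 4 of the 8 libraries. This rule kept 59 of 67 such genes among 55487 genes in the table: 5 of H1, 14 of H2A, 17 of H2B, 10 of H3 and 13 of H4.

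Histones package DNA into nucleosomes, each an octamer of H2A, H2B, H3 and H4, and H1 binds the linker DNA between them. Replication-dependent histone genes lie in clusters, mostly lack introns, and are transcribed in S phase, when newly made DNA needs histones. Their mRNAs end in a short stem-loop that is bound by SLBP, in place of the poly(A) tail of other mRNAs, and they are degraded when DNA synthesis stops. In dividing cells they make up most of the histone supply, while variants such as H2A.Z and H3.3 come from other genes that are transcribed outside S phase as well.

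Library totals ran from 43974037 to 57988772 counts. Il2ra, the gene that the label names, was at 181 ± 43.1 CPM (library-size scaled counts, written CPM; mean ± SD, n = 4) under the KO label and 193 ± 35.9 in wild type, a log2 fold change of -0.09 ± 0.19. Counts over the whole gene need not show a deletion of a few exons, so the label was not checked by this, and its group is called the KO-labelled libraries. Of the markers of pro-B and pre-B cells, 12 of 12 were measured, with summed levels of 8673 to 10165 CPM in wild type and 8816 to 10351 in the KO-labelled libraries. One wild-type library, WT 4, stood apart from the others, and results are given with and without it where it moves them. Across all 18884 genes tested with edgeR, 0 were called at an adjusted p under 0.05 (0% of genes), while 1045 were higher and 1343 lower at an unadjusted p under 0.05. DESeq2 called 4 genes and limma-voom 0. Without WT 4 the edgeR count was 363.

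All 59 members had at least 10 counts in every one of the 8 libraries. Nearest inside the count rule were the H4 gene Hist1h4b, with 13 to 38 counts per library, and the H2A gene Hist2h2ac, with 25 to 220. Nearest outside were the testis histone gene Hist1h1t, with 0 to 17 counts, and Hist2h2ab, with 0 to 3. Another 6 genes were listed at 0 in each library: Hist1h2aa, Hist2h2aa1, Hist2h2aa2, Hist2h3c1, Hist2h3b and Hist2h2bb. In 5 of these 6, those of the Hist2 cluster, 100% of exon bases also lie in another gene of GENCODE M21, and fragments that overlap more than 1 gene were left unassigned under the recorded settings. Those zeros therefore do not show absence of the mRNA. Of the 59 members, 52 lie on chromosome 13, 4 on chromosome 3, 2 on chromosome 11 and 1 on chromosome 6 (GRCm38, the mm10 build).

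The stem-loops are shown because they are the feature that sets these mRNAs apart and because the H4 class differs from the others in it. A stem of 6 base pairs around a loop of 4 bases was found past the stop codon in the annotated transcripts of 42 of 59 members. Of the 17 others, 12 have annotations that end fewer than 20 bases after the stop codon. The 24 bases are written 5′ to 3′ from the GENCODE M21 transcripts, with the 2 arms of the stem in capitals.
Hist1h1c (H1, chr13:23739508-23739531, plus strand): aaaaGGCTCTtttcAGAGCCacca
Hist1h2ag (H2A, chr13:22042479-22042502, minus strand): caaaGGCTCTtttcAGAGCCacct
Hist1h2bg (H2B, chr13:23571839-23571862, plus strand): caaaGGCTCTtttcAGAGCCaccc
Hist1h3e (H3, chr13:23561899-23561922, minus strand): aaacGGCTCTtttaAGAGCCacct
Hist1h4d (H4, chr13:23581946-23581969, plus strand): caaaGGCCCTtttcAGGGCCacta
Hist1h4b (H4, chr13:23757362-23757385, plus strand): aaaaGGTCCTtttcAGGACCactc
The stem GGCTCT was present in all 30 of the H1, H2A, H2B and H3 members in which a stem-loop was found, and in 0 of 12 H4 members. Of the H4 members, 10 had GGCCCT, which differs by T4C and A13G with positions counted from the first base of the stem. The remaining H4 members, Hist1h4b and Hist1h4j, had GGTCCT, which differs by C3T, T4C, A13G and G14A. Each pair of changes keeps the arms complementary. In 21 of the 42 members the annotated transcript ran more than 100 bases past the stem-loop, and in 12 that stretch held the poly(A) signal letters AATAAA. Among them were Hist1h1d, with 4884 bases past the stem-loop, Hist4h4 with 2445, Hist1h2ac with 2010 and Hist1h2be with 1861.

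Levels of H2A and H3 differed far more among the wild-type libraries than between genotypes, while H1 was higher in each KO-labelled library than in 3 of the 4 wild-type libraries. Summed over its 14 members, H2A was at 573, 309, 806 and 3850 CPM in WT 1 to WT 4, and at 1986, 980, 599 and 1589 CPM in KO 1 to KO 4. The highest library was 12.5 times the lowest, both of them wild type, and the KO-labelled values lay between them. H3 gave 28.6, 13.3, 32.6 and 114 CPM in wild type and 95.8, 42.4, 37.1 and 63.3 in the KO-labelled libraries, an 8.56-fold range with the same libraries at its ends. H1 was at 131, 139, 171 and 325 CPM in wild type and 377, 225, 333 and 307 in the KO-labelled libraries, and the groups overlapped at WT 4. H2B and H4 moved much less. H2B was at 364, 351, 501 and 595 CPM in wild type and 417, 589, 430 and 498 in the KO-labelled libraries, a 1.69-fold range. H4 was at 257, 245, 380 and 348 CPM in wild type and 238, 328, 206 and 277 in the KO-labelled libraries, a 1.85-fold range. The 4 core histones, which are used in equal numbers in a nucleosome, thus had mRNA counts that did not vary together over these libraries.

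**Figure D1:**
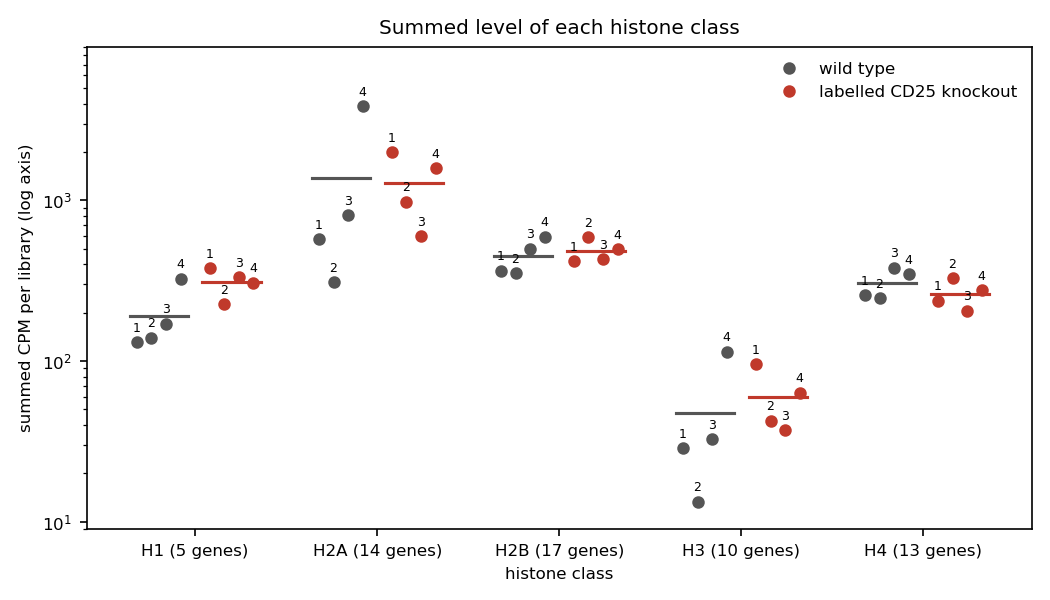
Summed CPM of the members of each histone class in each library, on a log axis, with the replicate number beside each point and a bar at the mean of 4 libraries. WT 4 lies at 3850 CPM and WT 2 at 309 CPM for H2A, while the 8 libraries span only 1.69-fold for H2B.

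The class means gave KO/WT ratios of 1.62 for H1, 0.931 for H2A, 1.07 for H2B, 1.26 for H3 and 0.852 for H4. The corresponding means were 310.5 ± 63.6 CPM against 191 ± 90.4 for H1 and 1288 ± 619 against 1384 ± 1656 for H2A (labelled knockout against wild type, SD, n = 4). They were 483 ± 78.6 against 453 ± 117 for H2B, 59.7 ± 26.6 against 47.2 ± 45.5 for H3, and 262 ± 52.6 against 308 ± 66.7 for H4. In every class the 2 groups overlapped. Without WT 4 the ratio was 2.29 for H2A and 2.40 for H3, so that 1 library set the position of these 2 classes. Summed over all 59 members the ratio was 1.01, and 1.68 without WT 4. Every KO-labelled library was above WT 1, WT 2 and WT 3 for 12 of 59 members, 7 of them of H3 and 3 of H1. This held for 13.6% of the genes tested without WT 4. With a mean of at least 5 CPM it held for 8 of 49 members (16.3%) and for 20.9% of 10296 genes, so the members showed no excess there.

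WT 4 was the highest library for 35 of 59 members and WT 2 the lowest for 44, against 11.5% and 25.3% of the 18884 genes tested. Both held for 27 of 59 members, most of them of H2A and H3, and for 5.4% of genes tested. WT 4 was highest for 12 of 14 H2A and 8 of 10 H3 members, and WT 2 was lowest for all 14 and all 10. Of the H4 members, 3 of 13 were highest in WT 4 and 6 in WT 3. The ratio of highest to lowest library was over 8 for 20 of 59 members and for 10.5% of genes tested. Its median was 13.1 in H2A, 8.72 in H3, 3.82 in H1, 1.99 in H2B and 1.79 in H4, beside 2.17 over all genes tested. Members of a class are not independent measurements, since many share sequence and every alignment of a multi-mapped fragment was counted. The H2A and H3 members shared a median of 73% and 57.3% of their 50-base windows with another annotated gene, H2B 44.1%, H4 39.5% and H1 2.3%, and a single H2A window occurred in up to 20 genes.

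**Figure D2:**
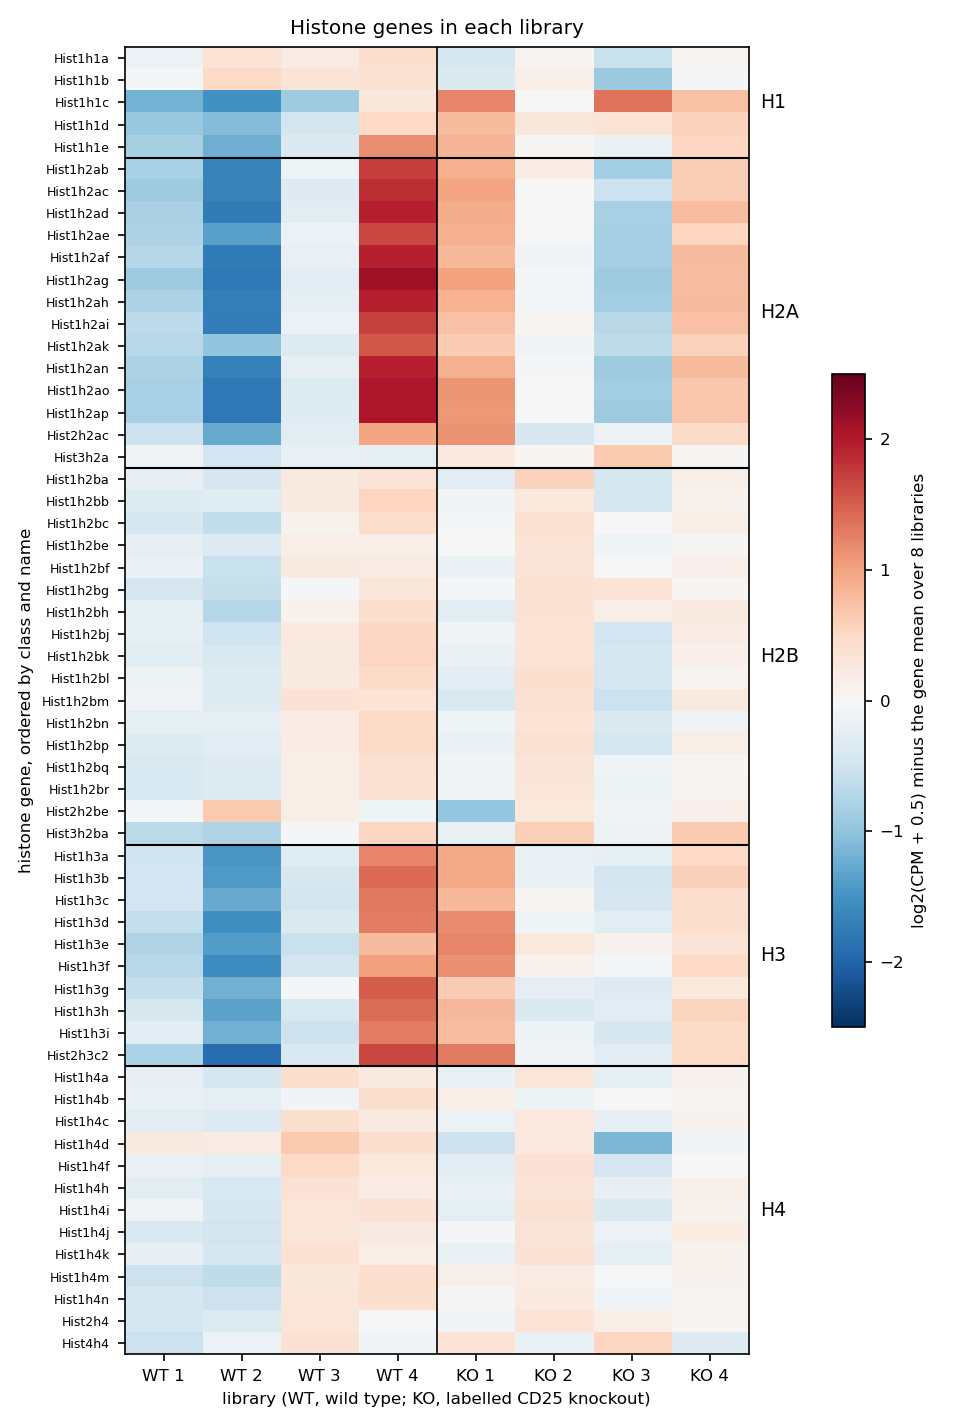
Deviation of log2(CPM + 0.5) from the mean of each gene over 8 libraries for the 59 members, in rows by class, with wild type left and the KO-labelled libraries right of the line. WT 4 is the highest library for 12 of 14 H2A members and WT 2 the lowest for all 14, while H2B and H4 rows are pale.

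Members of linker histone H1 went in opposite directions. The class had the highest KO/WT ratio with all libraries, at 1.62, and the third highest without WT 4, at 2.11. Hist1h1c, which encodes the linker histone H1.2, was at 39.4, 31.4, 48.2 and 109.9 CPM in wild type and at 210.2, 89.8, 233 and 149.5 CPM in the KO-labelled libraries. Only WT 4 reached into the KO-labelled range. The log2 fold change was 1.58 ± 0.42 (SE), with an unadjusted p of 0.00378 and an adjusted p of 0.391, so it was not called. Without WT 4 it was 2.11 ± 0.31 with an adjusted p of 0.0493, past the threshold by a narrow margin. Hist1h1d, which encodes H1.3, was at 9.37, 8.46, 13.4 and 26.2 CPM in wild type and 32.3, 22.6, 23.6 and 27.8 CPM in the KO-labelled libraries. WT 4 again lay within the other group. Its log2 fold change was 0.89 ± 0.33 (unadjusted p = 0.0241, adjusted p = 0.391), and 1.35 ± 0.21 without WT 4 (adjusted p = 0.0493). Hist1h1e, which encodes H1.4, ran from 21.4 CPM in WT 2 to 115 in WT 4, with 45.5 to 91.5 in the KO-labelled libraries, and differed by 0.37 ± 0.48 (unadjusted p = 0.467), and by 1.15 ± 0.28 without WT 4 (adjusted p = 0.0537). Of its exon bases 25.7% overlap Hist1h2be and a predicted gene.

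Hist1h1a and Hist1h1b, which encode H1.1 and H1.5, showed another pattern. Hist1h1b was at 44, 64.2, 56.8 and 59 CPM in wild type and 34.8, 49.9, 23.5 and 44.1 in the KO-labelled libraries, a log2 fold change of -0.56 ± 0.22 (unadjusted p = 0.0315, adjusted p = 0.391). The groups overlapped at WT 1. Hist1h1a was at 12.8 ± 2.17 CPM in wild type and 9.51 ± 2.22 in the KO-labelled libraries (log2 fold change -0.43 ± 0.20, unadjusted p = 0.062). For this pair of genes WT 4 was 1.06 and 0.919 times WT 2, against 3.50 for Hist1h1c and 5.37 for Hist1h1e. They share none of their 50-base windows with other annotated genes. Per annotated length, Hist1h1b had the highest H1 value in wild type, at 75.4 CPM per kb against 36.7 for Hist1h1c. In the KO-labelled libraries Hist1h1c had it, at 109 against 51.2 for Hist1h1b. The annotated lengths were 743 bases for Hist1h1b and 1560 for Hist1h1c, 840 of these past the stem-loop. Without division by length the wild-type means were near equal, at 56.0 CPM for Hist1h1b and 57.2 for Hist1h1c. The wild-type order of these 2 genes thus depends on the length used.

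Across the 59 members, 3 were higher and 2 lower at an unadjusted p under 0.05, and 0 were called after adjustment. Over all genes tested 5.53% were higher and 7.11% lower at that p, so the count of members lay near the background. The 5 were Hist1h1c, Hist1h1d and Hist3h2a on the higher side and Hist1h1b and Hist1h4d on the lower side. The median log2 fold change was 0.02 over the members and 0.00 over all genes tested.

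H2A held the highest counts per length and the widest spread. Since every alignment of a multi-mapped fragment was counted and H2A members share the most sequence, these counts do not rank the classes by mRNA abundance. How fully mRNAs without a poly(A) tail entered the libraries was not tested either. Members called abundant here are those with high counts per length. Hist1h2ag, Hist1h2ap and Hist1h2ao, which encode canonical H2A, were at 755, 717 and 704 CPM per kb, above every other member. The next H2A member, Hist1h2ah, was at 101. Hist1h2ag was at 142, 75.3, 216 and 1135 CPM in wild type and 523, 251, 141 and 445 CPM in the KO-labelled libraries. WT 4 was 15.1 times WT 2, and the KO-labelled libraries lay between those extremes. The log2 fold change was -0.20 ± 0.76 (unadjusted p = 0.794), and 1.24 ± 0.46 without WT 4 (adjusted p = 0.167). Hist1h2ao and Hist1h2ap gave -0.11 ± 0.74 each, and 1.27 ± 0.46 each without WT 4. This pair has identical coding sequences, shares 93.5% and 93.1% of windows with other genes and had near-equal counts, so their levels are not independent and cannot be assigned to 1 locus. The 9 other H2A members of the Hist1 cluster lay between 7.82 and 101 CPM per kb, for Hist1h2ak and Hist1h2ah. Their log2 fold changes ran from -0.18 for Hist1h2af to -0.01 for Hist1h2ab, and the highest library was between 8.19 and 14.5 times the lowest. Other annotated genes cover between 9.9% and 35.9% of the exon bases of each H2A member.

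In all, 12 of 14 H2A members had a log2 fold change below 0 with all libraries, with a median of -0.09 and a median SE of 0.71. Without WT 4 all 14 were above 0, with a median of 1.16, and all 14 reached an unadjusted p under 0.05, but 0 were called after adjustment. Without that library 14.5% of all genes tested were higher at that p, and 1.84% were called higher. H2A members from the Hist1 cluster thus changed direction with 1 library and cannot be placed in either direction.

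Hist3h2a, an H2A gene of the small cluster on chromosome 11, did not follow the class. It was at 48.6, 37.2, 45.7 and 44.6 CPM in wild type and at 61.6, 54.1, 82.2 and 52.9 CPM in the KO-labelled libraries. It was the only member whose groups did not overlap in either direction, and such separation toward higher values was seen in 2.62% of genes tested and toward lower values in 4.17%. The log2 fold change was 0.51 ± 0.16 (unadjusted p = 0.00971, adjusted p = 0.391), and 0.52 ± 0.18 without WT 4 (adjusted p = 0.129). Other annotated genes, Trim17 among them, cover 33% of its exon bases. Trim17 was at 1.83 ± 0.432 CPM in wild type and 2.74 ± 0.277 in the KO-labelled libraries, a log2 fold change of 0.58 ± 0.22 (unadjusted p = 0.0223), and its part in the result was not tested. Hist2h2ac, on chromosome 3, was low, at 1.71 ± 1.54 CPM in wild type and 2.44 ± 1.43 in the KO-labelled libraries (log2 fold change 0.51 ± 0.62, unadjusted p = 0.433), and gave 1.35 ± 0.51 without WT 4 (adjusted p = 0.166).

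H2B mRNAs varied little. The class had a median SE of 0.24 on the log2 scale against 0.71 for H2A, and 9 of 17 members were above 0 and 8 below, with a median of 0.05 and 0 at an unadjusted p under 0.05. Hist1h2bg, the most abundant H2B gene at 121 CPM per kb, was at 54.7, 48.9, 71.4 and 90.6 CPM in wild type and 71.5, 95.6, 92.7 and 74.9 CPM in the KO-labelled libraries. The groups overlapped at WT 4. Its log2 fold change was 0.33 ± 0.20, the smallest p of the class at 0.12. Hist3h2ba, beside Hist3h2a on chromosome 11, gave 0.45 ± 0.32 (unadjusted p = 0.198). Hist1h2bk and Hist1h2bc, at 73.0 and 72.0 CPM per kb, gave -0.08 ± 0.24 and 0.20 ± 0.22. The 13 other members ran from 6.88 CPM per kb for Hist1h2bh to 57.9 for Hist1h2bj, with log2 fold changes from -0.30 for Hist2h2be to 0.20 for Hist1h2bh. Hist2h2be, which has a long annotated transcript and shares no window with another gene, was the exception in its order of libraries. It was highest in WT 2, at 37.1 CPM, and lowest in KO 1, at 11.7, with 21.8 in WT 4. Without WT 4, 3 of 17 H2B members were higher at an unadjusted p under 0.05, beside 14.5% of all genes tested, and the class median was 0.19.

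H3 mRNAs followed H2A in their order of libraries, at low counts. Their counts per length ran from 3.61 CPM per kb for Hist2h3c2 to 12.1 for Hist1h3h, with Hist1h3i at 9.83 and Hist1h3b at 8.85. Of the 10 members, 9 were above 0 and 1 below, with a median log2 fold change of 0.22, and 0 reached an unadjusted p under 0.05. Hist1h3e was at 2.82, 1.60, 3.30 and 9.11 CPM in wild type and at 12.5, 6.21, 5.39 and 6.58 CPM in the KO-labelled libraries. Every KO-labelled library was above WT 1, WT 2 and WT 3, and 3 of them below WT 4. The log2 fold change was 0.86 ± 0.50 (unadjusted p = 0.114), and 1.58 ± 0.36 without WT 4 (adjusted p = 0.0503), just short of the threshold. Hist1h3f gave 0.64 ± 0.54, and 1.45 ± 0.38 without WT 4 (adjusted p = 0.062). The most abundant members, Hist1h3h, Hist1h3i and Hist1h3b, gave 0.09 ± 0.60, 0.15 ± 0.57 and 0.17 ± 0.62, and 1.05 ± 0.40, 1.03 ± 0.38 and 1.18 ± 0.43 without WT 4. Of the others, Hist1h3a, Hist1h3c, Hist1h3d and Hist1h3g gave 0.29 ± 0.59, 0.18 ± 0.60, 0.38 ± 0.59 and -0.19 ± 0.60. Hist2h3c2, on chromosome 3, had the widest range of any member, from 0.353 CPM in WT 2 to 9.77 in WT 4, or 27.7-fold. Without WT 4, 9 of 10 H3 members reached an unadjusted p under 0.05, all higher, beside 14.5% of all genes tested, and the median was 1.18. None of the 10 was called after adjustment, beside 1.84% of genes called higher.

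H4 mRNAs, like H2B, varied little, with a median SE of 0.22. Of the 13 members, 8 were above 0 and 5 below, with a median of 0.02. Hist1h4d stood out. It was the most abundant H4 gene, at 100.1 CPM per kb, and the one with the largest log2 difference of the class. Its level was 125, 123, 169 and 142 CPM in wild type and 74.7, 126, 49.1 and 102 CPM in the KO-labelled libraries. Only KO 2 lay within the wild-type range. The log2 fold change was -0.66 ± 0.25 (unadjusted p = 0.0262, adjusted p = 0.391), and -0.66 ± 0.27 without WT 4. Hist1h4n and Hist1h4m, next in abundance at 77.5 and 76.4 CPM per kb, have identical coding sequences and gave 0.06 ± 0.22 and 0.15 ± 0.24. The 8 other members, with Hist2h4 and Hist1h4b left aside, ran from -0.19 for Hist1h4f to 0.20 for Hist4h4, and their highest library was 1.70 to 2.18 times the lowest. Hist2h4 on chromosome 3 gave 0.24 ± 0.21 (unadjusted p = 0.286). Hist1h4b, the least abundant member at 1.03 CPM per kb, was at 0.399 ± 0.192 CPM in wild type and 0.419 ± 0.0708 in the KO-labelled libraries.

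**Figure D3:**
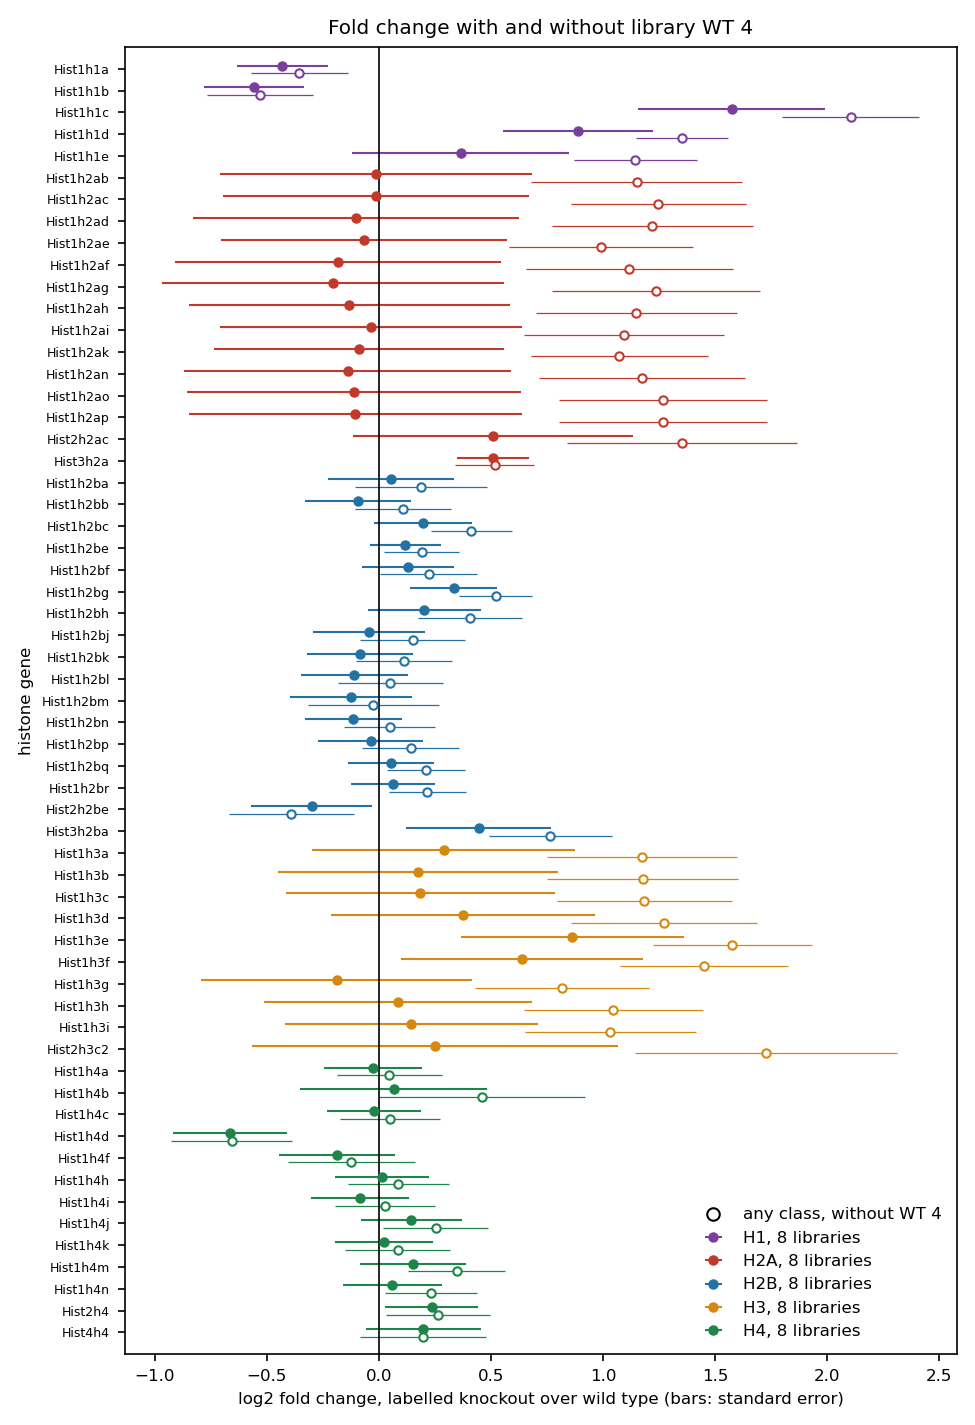
Log2 fold change of each member, KO-labelled libraries over wild type, from the edgeR fit with all 8 libraries (filled) and without WT 4 (open), with bars of 1 standard error. The 12 H2A members below 0 with all libraries are above 0 without WT 4, while Hist1h1b and Hist1h4d stay below 0 and Hist3h2a stays at about 0.5.

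Neighbouring H2A and H2B genes gave the closest comparison of the classes, since 11 pairs of members lie head to head with 175 to 301 bases between their starts and so share the DNA between them. Within each of these pairs the H2A gene had the wider range. The highest library was 8.19 to 15.1 times the lowest for the H2A genes, and 1.70 to 3.16 times for their H2B partners. Hist1h2ag and Hist1h2bj are separated by 269 bases. Hist1h2bj was at 22.1, 18.3, 31.0 and 37.5 CPM in wild type and 24.4, 33.1, 18.4 and 29.7 in the KO-labelled libraries, so WT 4 was 2.05 times WT 2, against 15.1 for its partner. The ratio of H2A to H2B counts was highest in WT 4 for 10 of 11 pairs and lowest in WT 2 for 10. Its median over the pairs was 0.532, 0.335, 0.546 and 2.05 in WT 1 to WT 4 and 1.54, 0.551, 0.569 and 1.15 in KO 1 to KO 4. The pairs are not independent, since H2A members shared a median of 73% of windows and every alignment of a multi-mapped fragment was counted. Hist1h2ao and Hist1h2ap have identical coding sequences, as have their partners Hist1h2bq and Hist1h2br. The ratios therefore cannot be assigned to single loci.

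**Figure D4:**
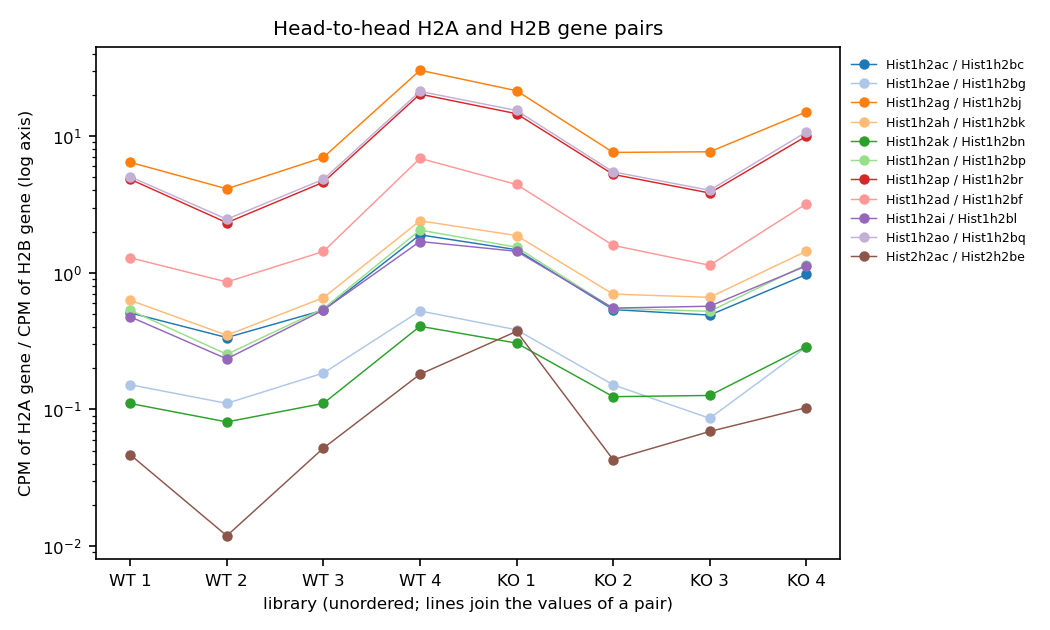
CPM of the H2A gene divided by CPM of the H2B gene for 11 head-to-head pairs in each library, on a log axis. The curves are nearly parallel, with the highest ratio in WT 4 for 10 pairs and the lowest in WT 2 for 10. Many of these genes share sequence, so the curves are not independent.

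Promoter sequences from RefSeq (GRCm38.p6, 250 bases before to 50 after the start) were found for 54 of 59 members. The letters CCAAT were searched on both strands. The letters TATAAA were searched likewise, as was the octamer, ATTTGCAT, known from H2B promoters. CCAAT was present in every promoter found of H1 (5), H2A (14), H2B (15) and H3 (8) but in 3 of 12 H4 promoters, and in 37.9% of 27025 promoters of the table. TATAAA was present in 59.3% of members' promoters and 14.2% of all. The octamer was present in 6 of 14 H2A and 5 of 15 H2B promoters, in 0 of the other classes and in 1.75% of all promoters. Windows of head-to-head partners overlap, so their matches are partly the same letters. A match is a description of the letters and not evidence of binding. The promoters of Hist1h2ag and Hist1h4d are shown, as the member with the highest level and the H4 gene with the largest difference, with CCAAT or its complement ATTGG and TATAAA in capitals.
Hist1h2ag (chr13:22042900-22043199, minus strand): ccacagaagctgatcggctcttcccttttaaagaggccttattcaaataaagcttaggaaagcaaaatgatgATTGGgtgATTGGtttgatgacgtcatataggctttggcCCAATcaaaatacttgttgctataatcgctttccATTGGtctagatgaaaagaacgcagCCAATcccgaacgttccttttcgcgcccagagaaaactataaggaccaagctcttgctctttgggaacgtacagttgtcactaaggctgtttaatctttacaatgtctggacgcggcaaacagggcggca
Hist1h4d (chr13:23581318-23581617, plus strand): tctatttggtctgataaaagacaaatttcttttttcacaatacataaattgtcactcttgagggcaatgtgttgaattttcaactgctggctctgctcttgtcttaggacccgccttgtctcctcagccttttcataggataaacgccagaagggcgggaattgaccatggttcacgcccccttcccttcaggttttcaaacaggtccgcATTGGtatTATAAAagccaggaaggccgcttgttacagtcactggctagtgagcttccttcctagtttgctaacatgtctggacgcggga
The window of Hist1h2ag holds 5 matches to CCAAT and its H2B partner's window holds 5 as well, being largely the same DNA read from the other strand. The window of Hist1h4d holds 1 match to CCAAT and 1 to TATAAA.

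Base composition moved with the order of the libraries. Coding sequences of H2A had a median GC content of 69%, H3 66.9%, H4 65.1%, H2B 62.7% and H1 61.5%. Across the 59 members the log2 ratio of WT 4 to WT 2 had a Spearman correlation of 0.79 with coding GC content and a Pearson correlation of 0.84. With exon GC content, taken from the longest annotated transcript, the correlations were weaker, at 0.54 and 0.51. Hist1h2ac and Hist3h2a both have 45.9% exon GC, with WT 4 to WT 2 ratios of 11.7 and 1.20. With the coding content of A the correlations were -0.63 and -0.60. The points share libraries, counted fragments and class, and the correlations are descriptions across genes. Within H1, the genes Hist1h1a and Hist1h1b, which did not differ much between WT 4 and WT 2, have 56.5% and 57.3% coding GC, and Hist1h1c, Hist1h1d and Hist1h1e have 61.5% to 63.5%. Within H2A, Hist3h2a, with a WT 4 to WT 2 ratio of 1.20, has the lowest coding GC of its class at 61.6%. H4 genes lay off this relation, with coding GC of 62.2% to 66.0% and a median WT 4 to WT 2 ratio of 1.54. Classes also differed at like coding GC. Hist1h1e, at 61.5%, had a ratio of 5.37, against 1.20 for Hist3h2a at 61.6%. Hist1h1c, at 63.5%, had 3.50, against 1.64 for the H2B gene Hist1h2bq at the same coding GC. H2B members, at 57.0% to 63.8%, had a median ratio of 1.77.

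**Figure D5:**
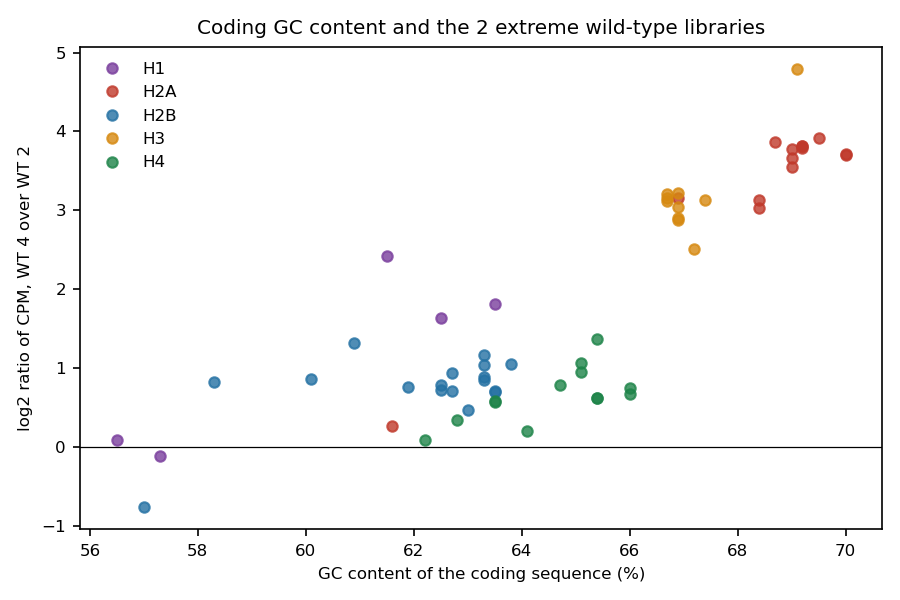
Log2 ratio of CPM in WT 4 over WT 2 against the GC content of the coding sequence for 59 members, coloured by class. H2A and H3 genes with coding GC above 66% lie at ratios of 2.5 to 4.8 on the log2 scale, while H4 genes up to 66.0% lie at 1.4 or less.

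The libraries differed in GC content over all genes too. A smooth trend of expression on exon GC gave, at 65% GC, a log2 deviation of -0.354, -0.834, -0.201 and 0.395 in WT 1 to WT 4 and 0.561, 0.047, 0.212 and 0.173 in KO 1 to KO 4. WT 2 was the lowest of these, as for H2A and H3, while KO 1 and not WT 4 was the highest. Among 203 other genes with at least 5 CPM and 60 to 65% exon GC the median log2 ratio of WT 4 to WT 2 was 1.15, and among 13 members in that range it was 2.24. At 65 to 70% it was 1.70 for only 9 other genes and 3.39 for 9 members. With the trend removed, the ratio of highest to lowest library had a median of 6.06 in H2A, 6.20 in H3, 2.05 in H2B and 1.82 in H4. For H1 it was 4.16, against 3.82 before. The trend used exon GC and not coding GC. It moved this ratio from 15.1 to 7.14 for Hist1h2ag (64.3% exon GC, 69.5% coding). For Hist1h2ac (45.9% exon GC, 69.0% coding) it went from 11.7 to 11.8. The wider spread left in H2A, H3 and H1 was thus not tested against coding GC. With the trend removed and WT 4 left out, a combination chosen after seeing the data, 7 of 59 members were called higher, against 7.2% of genes tested. They were Hist1h1c (log2 fold change 2.02), Hist1h1d (1.47), Hist1h1e (1.18), Hist1h3d (1.41), Hist1h3e (1.70), Hist1h3f (1.78) and Hist2h3c2 (1.64). In the same fit 6 of 14 H2A members were higher at an unadjusted p under 0.05, beside 14.4% of all genes, and 0 were called.

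Of 11 genes for histone variants, which lie outside these clusters, 9 were tested, with 0 higher and 1 lower at an unadjusted p under 0.05 with all libraries. H2afx, which encodes the damage-marking variant H2A.X, was at 37.2, 18.2, 49.7 and 184 CPM in wild type and 130.4, 59.3, 45.6 and 112 in the KO-labelled libraries, the same order of libraries as the H2A sum. Its log2 fold change was 0.26 ± 0.63, and 1.31 without WT 4 (adjusted p = 0.104). H2afj and the linker variant gene H1f0 were 8.88 and 5.16 times higher in WT 4 than in WT 2. Without WT 4 the log2 fold change went from 0.69 to 1.73 for H2afj (adjusted p = 0.0562) and from 0.55 to 1.47 for H1f0 (adjusted p = 0.0493), past the threshold for H1f0. The H3.3 genes H3f3a and H3f3b were 1.15 and 1.03 times higher in WT 4. For H2afz, which encodes H2A.Z, the level was 1679, 1620.3, 1868 and 2004 CPM in wild type and 1106, 1605, 811 and 1528 in the KO-labelled libraries, and the groups did not overlap (log2 fold change -0.51 ± 0.20, unadjusted p = 0.0279, adjusted p = 0.391).

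Of 30 genes of DNA replication and S phase, 0 were higher and 20 lower at an unadjusted p under 0.05, with a median log2 fold change of -0.45 and 0 called. Cdc6, which loads the replicative helicase, was at 79.4 ± 10.5 CPM in wild type and 52.3 ± 11.1 in the KO-labelled libraries (log2 fold change -0.60 ± 0.17, unadjusted p = 0.00539). Pole, which encodes a replicative DNA polymerase, gave -0.73 ± 0.21 (unadjusted p = 0.00616). Set beside this list, the median log2 fold changes of the histone classes were 0.37 for H1, -0.09 for H2A, 0.05 for H2B, 0.22 for H3 and 0.02 for H4. The summed level of the S phase list was 4215 to 5061 CPM in wild type and 2604 to 4226 in the KO-labelled libraries, with KO 3 the lowest.

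Of 30 measured genes for transcription and 3′ end processing of histone mRNA, 1 was higher and 6 lower at that p, with a median of -0.04. Slbp, which encodes the stem-loop binding protein, was at 526, 323, 451 and 527 CPM in wild type and 384, 455, 302 and 474 in the KO-labelled libraries (log2 fold change -0.18 ± 0.18, unadjusted p = 0.356). Npat, the coactivator of the histone loci, was at 81.1 ± 10.2 CPM in wild type and 61.7 ± 7.89 in the KO-labelled libraries (-0.39 ± 0.13, unadjusted p = 0.0127). Zfp473, a zinc finger protein of the U7 processing complex, gave -0.72 ± 0.25 and Ccne2, a cyclin of the S phase entry kinase, -0.63 ± 0.25. Pou2f1, which binds the octamer motif, was the one higher gene, at 0.31 ± 0.14 (unadjusted p = 0.0476). Of the lower genes, Snrpd3, Snrpe and Snrpg encode Sm proteins. Of 22 chaperone and deposition genes 1 was higher and 5 lower, among them Nasp, a chaperone of H3 and H4, at -0.44 ± 0.15 (unadjusted p = 0.016), and Npm1 at -0.34 ± 0.10 (unadjusted p = 0.00897). Cabin1, of the H3.3 deposition complex, was the higher gene, at 0.43 ± 0.15.

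Malat1 and the summed small nuclear and small nucleolar RNAs, which also lack a poly(A) tail, had another order of libraries than H2A and H3. Malat1 was at 1386, 1118, 1200.04 and 1076 CPM in wild type and 1715, 1418, 1880.3 and 1069.7 in the KO-labelled libraries. The summed level of annotated small nuclear RNAs was highest in WT 3, at 316 CPM, with 199 in WT 4 and 186 in WT 2. Small nucleolar RNAs were at 47.7 CPM in WT 4, the lowest of the 8 libraries. Reads of their host genes may be counted in them. The part of RNA capture without a poly(A) tail in the order of the libraries was not tested.

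Markers of other cells moved with some of these results. All genes of these lists were measured but 1 erythroid marker, and Gp1bb, of the megakaryocyte list, was the one listed at 0 throughout. Erythroid markers, 14 of 15 measured, summed to 3596, 3393, 4305 and 9018 CPM in WT 1 to WT 4 and to 563 to 2641 CPM in the KO-labelled libraries. They were highest in WT 4, as H2A and H3 were, but not lowest in WT 2. Plasma cell markers, 5 of 5 measured, summed to 72.6, 49.7, 69.7 and 182 CPM in WT 1 to WT 4 and to 224, 94.0, 127 and 134 CPM in KO 1 to KO 4. This sum was lowest in WT 2, as H2A and H3 were, and every KO-labelled library was above WT 1, WT 2 and WT 3. Sdc1 and Xbp1 were 4.19 and 6.17 times higher in WT 4 than in WT 2, and the other markers of this list are not given singly. The mean log2 deviation over the 4 tested plasma cell markers, which weighs each gene alike, gave another order. It was lowest in WT 3, at -0.887, with -0.295 in WT 2, and highest in KO 1, at 0.634, with 0.342 in WT 4. KO 3 (-0.203) was below WT 1 (-0.135). Natural killer markers summed to 32.9 to 47.4 CPM in wild type and 8.56 to 29.7 in the KO-labelled libraries. Neutrophil markers summed to 252 to 551 and 117 to 475 CPM, monocyte markers to 132 to 227 and 42.8 to 167, T cell markers to 29.2 to 37.9 and 21.8 to 33.4, and megakaryocyte markers to 3.39 to 10.7 and 0.301 to 10.4. The part of these cells, of GC content and of multi-mapped fragments in the histone values was not tested. In bulk samples, fewer cells of a type and less RNA per cell cannot be told apart.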

How the data were processed

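The authors deposited 1 table of raw counts of fragments per gene for 8 libraries. Per the file headers, featureCounts 2.0.1 counted paired fragments over exons of GENCODE M25, counting every alignment of multi-mapped fragments, with no strand setting and without assigning fragments that overlap several genes. Per the submitters' processing notes, the tools were STAR 2.7.7a and GATK 4.1.9.0 (its role not given in the sources used here), on mm10. Trizol RNA and a SMARTER mRNA-Seq kit were used, per the labels' protocols. The deposited table also holds exon lengths (unit: other). Names, positions and stem-loops came from GENCODE M21 on GRCm38, with 55227 identifiers matched and 260 unnamed.

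Genes passing filterByExpr (18884) were scaled with TMM and tested with edgeR 4.0.16 (robust quasi-likelihood, two-sided, R 4.3.3) on genotype alone, with p-values adjusted by Benjamini and Hochberg's method. The standard error was derived from the F value. CPM per kb use the deposited lengths. Named per class were the 3 most abundant members, the 2 with the smallest p, and those without overlap and with at least 5 CPM. Of the other lists, genes at an unadjusted p under 0.05 were eligible. None of 12 within-group pairs of libraries looked like copies (chi-square at least 29.5 times its degrees of freedom). The scripts were tested on simulated data. The members, lists and tests were chosen with earlier results of these data known. The alternatives were DESeq2 1.42.0, limma-voom 3.58.1, other scaling, filters and compositions, a replicate block, a GC trend (loess, span 0.5) and leaving out libraries.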

Additional observations from a re-analysis of the deposited data

Results flagged for a closer look

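Of 56 groups of 4 libraries examined for a library far from the rest (gap to the nearest value divided by the range, against Dixon's critical value for 4 values), 7 were past the limit. Chance gives about 1 in 20 groups, and the members here share reads. In wild type, WT 4 stood above the rest in the summed CPM of H2A, with a gap of 0.86 of the range. The same library stood above the others in Hist1h2ag (0.867), Hist1h2ao (0.866), Hist1h2ap (0.865), Hist1h3b (0.834) and Hist1h3h (0.836). In the KO-labelled libraries, KO 1 stood above the rest in Hist1h3e (0.833). Over all 59 members, 12 had WT 4 past the limit among the wild-type libraries, and 1 member was past it among the KO-labelled libraries. The share of all genes past this limit is not given, so these counts cannot be called particular to the members.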

How the results depend on the processing

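Same-numbered libraries of the 2 genotypes deviated together with correlations of 0.098, 0.321, 0.196 and -0.107, which does not establish pairs, and the replicate block gave 0 genes called, 7 members at an unadjusted p under 0.05 and a median member log2 fold change of 0.24. Genes called numbered 0 with all libraries, 4 with DESeq2, 0 to 363 with 1 library left out, and 1417 with the GC trend removed and WT 4 left out (chosen after seeing the data). Members at an unadjusted p under 0.05 numbered 5 with all libraries, 3 with no count filter, 9 with limma-voom, 3 with the GC trend removed, 10 with the GC trend removed and the block, 2 to 31 with 1 library left out, and 19 with the GC trend removed and WT 4 left out. The highest counts of genes and members with 1 library left out both came without WT 4. Counts of all genes at that p moved as well. They were 1045 higher and 1343 lower of 18884 with all libraries, and 2831 and 1446 of 19506 without WT 4. With the GC trend removed they were 811 and 374 of 18884, and 2806 and 349 of 19506 when WT 4 was left out too. For the other settings these counts are not given, so their member counts cannot be called particular to the members. Leaving out WT 4 moved the member median log2 fold change from 0.02 to 0.46 and the KO/WT ratio of summed CPM from 1.01 to 1.68. That library also makes up much of the spread between wild-type libraries, so these values are not shown to be stable.

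Several single members changed sign, none of them called with all libraries. With the block, limma-voom, and the GC trend removed without WT 4, Hist1h2ag gave 0.42, 0.77 and 0.71, Hist1h2ao 0.47, 0.80 and 0.76, and Hist1h2ap 0.47, 0.80 and 0.75. With the GC trend removed and the block, Hist1h2ao and Hist1h2ap gave 0.042 and 0.031. Hist1h2bk gave 0.011 with limma-voom and 0.028 with the GC trend removed without WT 4. With the GC trend removed, alone and with the block, Hist1h3h gave -0.21 and -0.093, Hist1h3i -0.14 and -0.057, Hist1h4b -0.12 and -0.081, Hist1h4m -0.075 and -0.056, and Hist1h4n -0.12 and -0.10. Hist1h4m gave -0.028 with the GC trend removed without WT 4, and Hist1h4n -0.0079 with upper quartile factors. With 1 library left out, ranges crossed 0 for Hist1h2ag (-0.54 to 1.24), Hist1h2ao (-0.45 to 1.27), Hist1h2ap (-0.44 to 1.27), Hist1h2bk (-0.18 to 0.11), Hist1h3b (-0.13 to 1.18), Hist1h3h (-0.21 to 1.05), Hist1h3i (-0.14 to 1.03), Hist1h4b (-0.062 to 0.46) and Hist1h4n (-0.063 to 0.23). The cause was not tested. The depth of 43974037 counts or more leaves counting error small beside the spread between libraries for all but the lowest members.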
